A study of Homo sapiens with 9 samples.

Results

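The 10 genes described here are SOX10, MITF, TFAP2A, TFAP2B, PAX3, FOXD3, SNAI2, ZEB1 and ZEB2, transcription factors of the neural crest and of melanocytes, and ERBB3, a receptor of the same lineage. They were taken as the rows of the gene table that carry these names, 10 of 37118 genes. A mean of at least 1 FPKM (fragments scaled by transcript length and library size) over the 9 libraries was required for the test, which 8 of the 10 met, among 12394 genes in all. The libraries came from A375, an established human melanoma cell line labelled as wild type, and a single line is all the study used. Cells were given metformin, a biguanide drug used against type 2 diabetes, at 0, 20 or 40 mM, with 3 libraries at each dose. The 0 mM cells are the reference for both doses, and the labels give no other treatment, no duration and no vehicle. Messenger RNA was captured by its poly(A) tail and sequenced. The labels do not say whether replicates were separate cultures, so the p-values rest on a spread among libraries that could be technical alone.

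The neural crest is an embryonic cell population that leaves the neural tube and forms, among other tissues, melanocytes, peripheral neurons and glia. SOX10 and PAX3 switch on MITF, the master regulator of the melanocyte, and SOX10 also drives ERBB3. FOXD3 and the AP-2 factors act earlier, in the specification of crest cells. SNAI2, ZEB1 and ZEB2 are repressors known for the loss of cell contacts, and in melanoma SNAI2 and ZEB2 are associated with differentiated cells and ZEB1 with dedifferentiated ones.

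Library totals lay between 65738242 and 75629413 counts, and the lowest was that of replicate 3 at 40 mM. This library also stood apart in SOX10, and in the mitochondrial share of its counts, 4.36% against 3.01% and 3.27% in the other 40 mM libraries, so calls and counts of the 10 genes and of the lists around them that change without it are given both ways. Among 13 melanoma markers, 8 reached a mean of 1 FPKM, SOX10 among them. The pigment genes TYR, TYRP1, DCT, PMEL and MLANA were all below that level, with means between 0.0019 and 0.388 FPKM, so the label was met by lineage markers and not by pigment genes. The summed level of the 13 markers ran from 225 to 265 FPKM at 40 mM, against 262 to 292 FPKM at 0 mM. This sum is not independent of the 10 genes, since SOX10 and MITF are in it. SOX10 alone averaged 85.5 FPKM at 40 mM and 104 FPKM at 0 mM. Of the markers of other cell types, 0 of 3 epithelial and 0 of 3 endothelial genes reached 1 FPKM, 1 of 5 fibroblast genes (LUM), 1 of 4 immune genes (LYZ) and 2 of 3 keratinocyte genes (KRT10 and KRT14), and 0 were at 0 in every library. The keratinocyte sum was 30.7 to 32.5 FPKM at 40 mM, against 22.95 to 26.6 FPKM at 0 mM, and the fibroblast sum 6.11 to 7.12 FPKM, against 3.37 to 4.10 FPKM. The part of these markers in the results was not tested.

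At 40 mM, TFAP2B, FOXD3, ZEB2 and ERBB3 fell against 0 mM, PAX3 rose, and SOX10, ZEB1 and MITF did not pass the test (edgeR quasi-likelihood test, Benjamini-Hochberg adjusted p under 0.05, which is what rose and fell stand for throughout). That is 5 of the 8 genes tested, or 62.5%, where 56.2% of all tested genes were called, so the number of calls says nothing particular about these genes. By direction it was 4 falls, against a background of 27.4% of all genes lower, and 1 rise, against 28.8% higher. At 20 mM against 0 mM, 3 of the 8 fell, TFAP2B, FOXD3 and ZEB2, and 0 rose, where 31.6% of all genes were called, 15.2% lower and 16.3% higher. At 40 mM against 20 mM, TFAP2B, ZEB2 and ERBB3 fell and 0 rose, where 29.3% of all genes were called, 15.1% lower and 14.3% higher. The median log2 fold change of the 8 genes was -0.48 for 40 against 0 mM, -0.19 for 20 against 0 mM and -0.25 between 40 and 20 mM, and the median of all tested genes was 0.00 in each. These counts rest in part on replicate 3 of 40 mM. With it left out, SOX10 joined the falls at 40 against 0 mM, which made 6 of the 8. PAX3 then joined as a rise at 20 against 0 mM, which made 4. SOX10 and FOXD3 joined the falls between 40 and 20 mM, which made 5. The calls over the whole gene set also grew, to 7135, 4966 and 4065 in this order, from 6962, 3911 and 3637. In bulk RNA, fewer cells that express a gene and less of its RNA per cell cannot be told apart.

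**Figure D1:**
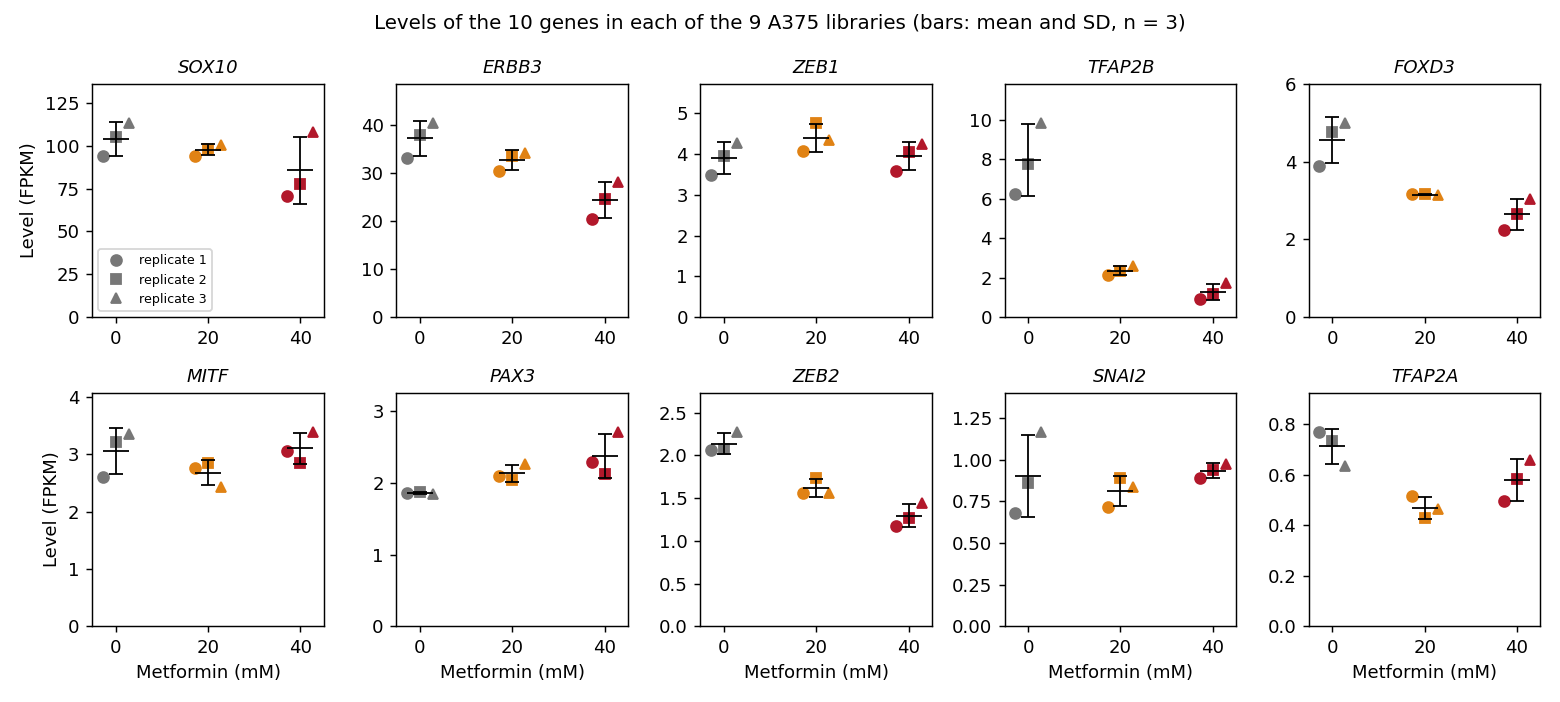
FPKM of the 10 genes (a panel and an axis from 0 for each gene) in the 9 libraries at 0, 20 and 40 mM metformin, with 1 point for each library and bars for the mean and SD of the 3 libraries of a dose. TFAP2B is lower in all 3 libraries at 20 mM, and lower again at 40 mM, while ZEB1 and MITF lie in overlapping ranges at 0 and 40 mM.

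**Figure D2:**
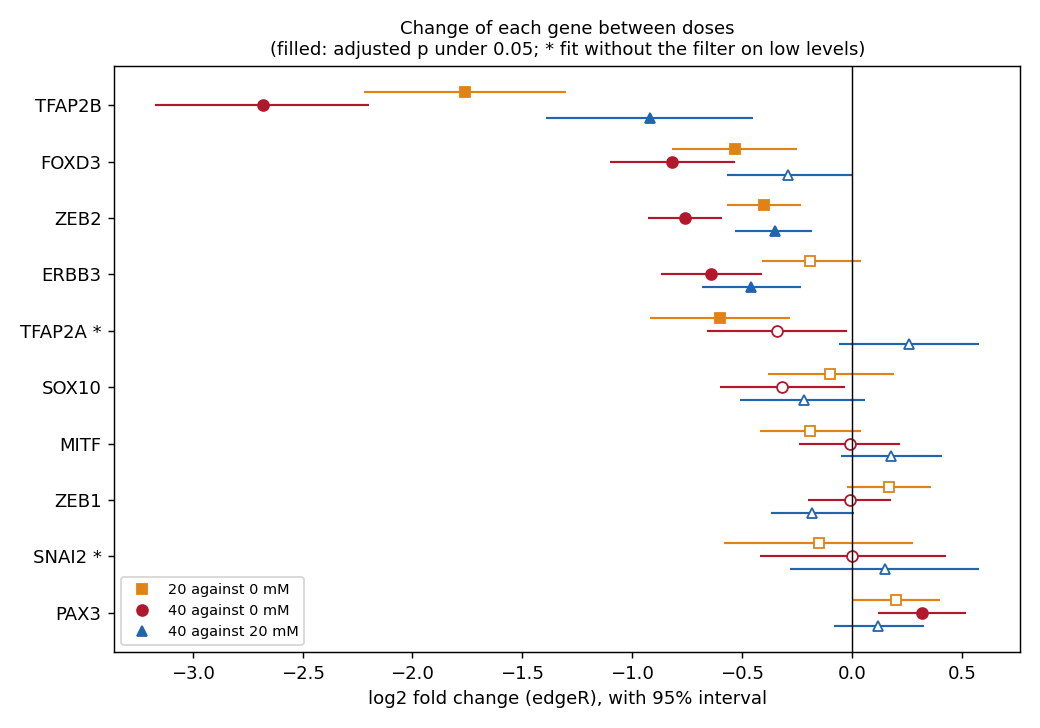
The log2 fold changes of the 10 genes in the 3 comparisons of doses from edgeR, with bars for the 95% interval, for TFAP2A and SNAI2 from the fit without a filter. TFAP2B reaches -2.68 at 40 against 0 mM, and PAX3, at 0.32, is the gene called in the other direction.

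Promoter windows of RefSeq genes, on GRCh38.p14, could be matched to 7 of the 10 genes, in 16 windows. The 250 bases before each start were searched on both strands for 7 short motifs. These were the E-box forms CACGTG and CATGTG, read by MITF and its relatives; TGACGTCA, the cyclic AMP response element; ACAAAG, read by SOX factors; CACCTG, read by ZEB and SNAI factors; GCCNNNGGC, read by AP-2 factors; and TGATGCAA, read by ATF4 with C/EBP factors. The stretches below are shown because TFAP2B and FOXD3 had the largest falls, while PAX3 rose and MITF did not pass the test. Capitals mark a motif found in either orientation, and the bases run in the direction of each gene up to its start, without exon bases.
TFAP2B, chr6:50818621-50818722 (+): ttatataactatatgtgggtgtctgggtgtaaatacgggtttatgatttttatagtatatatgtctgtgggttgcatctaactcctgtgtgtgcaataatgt
FOXD3, chr1:63322317-63322566 (+): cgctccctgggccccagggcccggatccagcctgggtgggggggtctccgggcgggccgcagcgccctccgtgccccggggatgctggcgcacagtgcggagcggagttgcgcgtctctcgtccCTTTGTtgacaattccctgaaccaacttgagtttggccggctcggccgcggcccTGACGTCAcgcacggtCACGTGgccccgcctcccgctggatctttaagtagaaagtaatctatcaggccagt
PAX3, chr2:222298999-222299248 (-): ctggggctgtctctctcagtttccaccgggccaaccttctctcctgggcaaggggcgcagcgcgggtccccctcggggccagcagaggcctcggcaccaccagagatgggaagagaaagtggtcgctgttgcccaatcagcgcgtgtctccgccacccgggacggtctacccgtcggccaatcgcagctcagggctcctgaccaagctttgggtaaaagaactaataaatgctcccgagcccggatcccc
MITF at its melanocyte start, chr3:69936342-69936586 (+): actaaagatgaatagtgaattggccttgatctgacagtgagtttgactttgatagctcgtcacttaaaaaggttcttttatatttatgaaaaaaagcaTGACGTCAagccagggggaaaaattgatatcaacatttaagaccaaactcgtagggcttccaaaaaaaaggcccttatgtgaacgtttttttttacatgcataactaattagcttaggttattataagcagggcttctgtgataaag
In FOXD3, CACGTG began 56 bases before the start, TGACGTCA 72 bases before it and ACAAAG, on the other strand, 126 bases before it. Over the 35116 promoter windows of the table these motifs stood in 6.34%, 1.65% and 13.7%. The melanocyte start of MITF had TGACGTCA 152 bases before it. The TFAP2B and PAX3 stretches hold none of the 7 motifs. GCCNNNGGC, found in 19.8% of all windows, and TGATGCAA, in 0.772%, were in none of the 16 windows. CATGTG, in 9.42% of all windows, was in windows of ZEB1 and ZEB2, and CACCTG, in 17.5%, was in 2 windows of ZEB1. ACAAAG was also in windows of MITF and ZEB2 that are not shown. Of the matches in this and the previous sentence, only a CACCTG of ZEB1, 57 bases before a start, lies outside exon bases. The ZEB2 window is exon over all its 250 bases. A match is a run of letters and no measured site.

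TFAP2B (ENSG00000008196, chromosome 6, 50818723 to 50847619 in the deposited table, for which the sources used here name no genome build) encodes an AP-2 factor of neural crest and kidney. Its FPKM in replicates 1, 2 and 3 was 6.26, 7.76 and 9.87 at 0 mM, 2.13, 2.33 and 2.58 at 20 mM, with 0.903, 1.18 and 1.71 at 40 mM. The 3 doses did not overlap, and every library at 40 mM was below every library at 20 mM. Behind these levels stood 472 to 783 counts at 40 mM, against 3255 to 5035 at 0 mM. The fall at 40 against 0 mM was -2.68 ± 0.22 on the log2 scale (SE, n = 3 libraries each, edgeR adjusted p = 2.9e-06), which left 15.6% of the 0 mM level. Of all 12394 tested genes, 4 fell further in that comparison, TFAP2B being in place 5. At 20 against 0 mM the gene fell by 1.76 ± 0.21 (adjusted p = 0.00016), and at 40 against 20 mM by 0.92 ± 0.21 (adjusted p = 0.0089).

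TFAP2A (ENSG00000137203, chromosome 6, 10393186 to 10419659), an AP-2 factor of early crest cells, was expressed below the level required for the test, with a mean of 0.587 FPKM. It had 0.771, 0.732 and 0.636 FPKM at 0 mM, 0.514, 0.428 and 0.466 at 20 mM, with 0.494, 0.585 and 0.66 at 40 mM. The 20 mM libraries lay below all 0 mM libraries, whereas the 40 mM libraries overlapped both. In a fit without the filter, the log2 fold change at 20 against 0 mM was -0.60 ± 0.14 (adjusted p = 0.029). That call was lost without replicate 1 (adjusted p = 0.11) or replicate 2 (0.093) of 0 mM, and without replicate 2 (0.12) or replicate 3 (0.093) of 20 mM. At 40 against 0 mM it was -0.34 ± 0.14 (adjusted p = 0.14) and at 40 against 20 mM 0.26 ± 0.14 (adjusted p = 0.40). TFAP2A lies across 2 antisense genes, TFAP2A-AS1 with a mean of 0.392 FPKM and TFAP2A-AS2 with 0.725 FPKM. The sources used here do not say which strand was counted, so reads of overlapping genes cannot be told apart.

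The level of TFAP2B over that of TFAP2A, both in FPKM and so per length, was 8.12, 10.6 and 15.5 at 0 mM, 4.15, 5.44 and 5.55 at 20 mM, with 1.83, 2.03 and 2.59 at 40 mM. TFAP2B was thus the higher of the pair in all 9 libraries, and the ratios of the 3 doses did not overlap. The log2 ratio differed by -2.37 between 40 and 0 mM, with means of 1.09 ± 0.26 at 40 mM and 3.46 ± 0.47 at 0 mM (SD, n = 3 each, two-sided exact permutation test, p = 0.1). With 3 against 3 libraries 0.1 is the smallest p this test allows, and it was also 0.1 after Benjamini-Hochberg adjustment over 6 comparisons of ratios. TFAP2C, a relative outside the list of 10, was more abundant than either, with 48.3 ± 0.197 FPKM at 0 mM, 48.6 ± 1.64 at 20 mM and 42.5 ± 1.67 at 40 mM (SD, n = 3 each), and fell at 40 against 0 mM by 0.22 ± 0.04 on the log2 scale (SE, adjusted p = 0.0011).

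**Figure D3:**
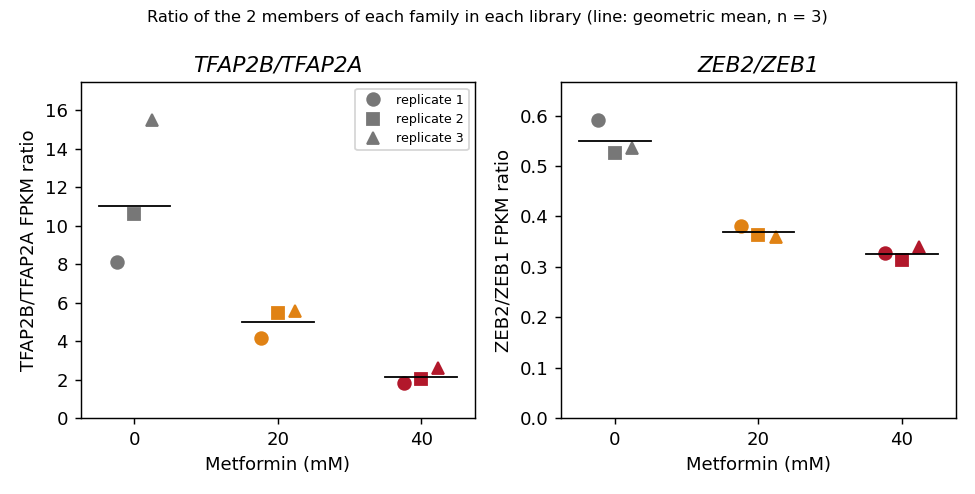
FPKM of TFAP2B over TFAP2A (left) and of ZEB2 over ZEB1 (right) in each library at 0, 20 and 40 mM metformin, with a line at the geometric mean of 3 libraries. The TFAP2B/TFAP2A ratio lies between 8.12 and 15.5 at 0 mM and between 1.83 and 2.59 at 40 mM, and the ZEB2/ZEB1 ratio is lower in all libraries at 40 mM than in any at 0 mM.

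FOXD3 (ENSG00000187140, chromosome 1, 63322567 to 63325128) encodes a forkhead factor that marks premigratory crest and represses MITF in zebrafish. Its FPKM was 3.89, 4.76 and 5.00 at 0 mM, 3.16, 3.17 and 3.13 at 20 mM, with 2.25, 2.64 and 3.04 at 40 mM. All libraries of both treated doses were below all 0 mM libraries, and the 20 mM libraries lay closest together. FOXD3 fell by 0.82 ± 0.13 on the log2 scale at 40 against 0 mM (SE, adjusted p = 0.00032) and by 0.53 ± 0.13 at 20 against 0 mM (adjusted p = 0.010). Between 40 and 20 mM the difference was -0.29 ± 0.13 (adjusted p = 0.12), without replicate 3 of 40 mM it was -0.40 (adjusted p = 0.033), and without replicate 1 of 40 mM it was -0.18 (adjusted p = 0.33). The antisense gene FOXD3-AS1, which overlaps it, had 2.86 ± 0.212 FPKM at 0 mM, 2.94 ± 0.803 at 20 mM and 2.66 ± 0.337 at 40 mM (SD, n = 3 each) and did not pass the test (log2 fold change -0.14 ± 0.20 at 40 against 0 mM, adjusted p = 0.57).

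SOX10 (ENSG00000100146, chromosome 22, 37970686 to 37984555) encodes the SOX factor that crest-derived melanocytes and glia keep throughout life, and it was the highest of the 10. Its FPKM was 93.7, 105 and 114 at 0 mM, 94.1, 98.3 and 101 at 20 mM, with 70.7, 78.0 and 108 at 40 mM. Replicates 1 and 2 of 40 mM were below all other libraries, while replicate 3 lay inside the 0 mM range. The log2 fold change at 40 against 0 mM was -0.32 ± 0.13 (SE, 95% interval -0.60 to -0.03, adjusted p = 0.057), which misses the threshold. Without replicate 3 of 40 mM it was -0.52 (adjusted p = 7.1e-05), and without replicate 1 of 0 mM -0.38 (adjusted p = 0.049). It was -0.20 (adjusted p = 0.19) without replicate 1 of 40 mM, -0.25 (adjusted p = 0.17) without replicate 2 of 40 mM and -0.25 (adjusted p = 0.18) without replicate 3 of 0 mM. At 40 against 20 mM it was -0.22 ± 0.13 (adjusted p = 0.22), with -0.43 (adjusted p = 0.0011) without replicate 3 of 40 mM and -0.10 (adjusted p = 0.57) without replicate 1 of 40 mM. At 20 against 0 mM it was -0.10 ± 0.13 (adjusted p = 0.61). SOX10 lies across POLR2F, a subunit gene of RNA polymerases on the other strand, which had 16.3 ± 0.525 FPKM at 0 mM, 14.6 ± 0.388 at 20 mM and 14.7 ± 1.09 at 40 mM (SD, n = 3 each) and fell by 0.18 ± 0.05 at 40 against 0 mM (SE, adjusted p = 0.012).

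ERBB3 (ENSG00000065361, chromosome 12, 56076799 to 56103505) encodes a receptor that binds neuregulins and signals through partners, since its own kinase is weak. Its FPKM was 33.2, 38.0 and 40.6 at 0 mM, 30.5, 33.65 and 34.3 at 20 mM, with 20.5, 24.7 and 28.1 at 40 mM. Every 40 mM library was below every library of the other doses, and the 0 and 20 mM ranges overlapped. ERBB3 fell by 0.64 ± 0.10 on the log2 scale at 40 against 0 mM (SE, adjusted p = 0.00036) and by 0.46 ± 0.10 at 40 against 20 mM (adjusted p = 0.0083). At 20 against 0 mM the difference was -0.19 ± 0.10 (adjusted p = 0.20), and with only the 6 libraries compared -0.18 (adjusted p = 0.049).

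PAX3 (ENSG00000135903, chromosome 2, 222199887 to 222298998), a paired-box factor that acts with SOX10 on MITF, was the gene that rose. It had 1.85, 1.87 and 1.84 FPKM at 0 mM, 2.096, 2.04 and 2.26 at 20 mM, with 2.30, 2.12 and 2.72 at 40 mM. All libraries of both treated doses lay above the 0 mM libraries, which differed little among themselves. The log2 fold change at 40 against 0 mM was 0.32 ± 0.09 (SE, adjusted p = 0.011), and 0.21 (adjusted p = 0.033) without replicate 3 of 40 mM. At 20 against 0 mM it was 0.20 ± 0.09 (adjusted p = 0.12), which was called without replicate 3 of 40 mM in the shared fit (0.20, adjusted p = 0.040) and with only the 6 libraries compared (0.20, adjusted p = 0.047). Between 40 and 20 mM the difference was 0.12 ± 0.09 (adjusted p = 0.33). CCDC140, which overlaps PAX3 on the other strand, had a mean of 0.174 FPKM.

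MITF (ENSG00000187098, chromosome 3, 69739464 to 69968336) had 2.60, 3.22 and 3.35 FPKM at 0 mM, 2.77, 2.84 and 2.43 at 20 mM, with 3.06, 2.85 and 3.40 at 40 mM. The 40 and 0 mM ranges overlapped, and the lowest library of all 9 was at 20 mM. Its log2 fold change was -0.01 ± 0.10 at 40 against 0 mM (SE, 95% interval -0.24 to 0.22, adjusted p = 0.93), -0.19 ± 0.10 at 20 against 0 mM (adjusted p = 0.19) and 0.18 ± 0.10 at 40 against 20 mM (adjusted p = 0.22). The row sums all MITF starts, so the melanocyte form was not measured apart from the others.

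ZEB2 (ENSG00000169554, chromosome 2, 144364364 to 144520400), a zinc-finger repressor needed for crest and melanocyte development, fell at each step of dose. Its FPKM was 2.06, 2.08 and 2.28 at 0 mM, 1.56, 1.74 and 1.56 at 20 mM, with 1.17, 1.26 and 1.44 at 40 mM, with no overlap between any doses. The fall was 0.76 ± 0.08 on the log2 scale at 40 against 0 mM (log2 fold change -0.76, SE 0.08, adjusted p = 1.5e-05), with log2 fold changes of -0.40 ± 0.08 at 20 against 0 mM (adjusted p = 0.0029) and -0.35 ± 0.08 at 40 against 20 mM (adjusted p = 0.0071). Genes that overlap ZEB2, ZEB2-AS1 among them, had means under 1 FPKM.

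ZEB1 (ENSG00000148516, chromosome 10, 31318495 to 31529813), its paralog, had 3.47, 3.95 and 4.26 FPKM at 0 mM, 4.08, 4.76 and 4.34 at 20 mM, with 3.58, 4.03 and 4.25 at 40 mM. The ranges of all 3 doses overlapped. The log2 fold change was -0.01 ± 0.09 at 40 against 0 mM (SE, 95% interval -0.20 to 0.18, adjusted p = 0.93), 0.17 ± 0.09 at 20 against 0 mM (adjusted p = 0.16) and -0.18 ± 0.09 at 40 against 20 mM (adjusted p = 0.14). ZEB1-AS1, with 0.5 FPKM, overlaps it on the other strand, and SPTLC1P1, with 1.15 FPKM, on the same strand. Their part in the ZEB1 values, and so in the ratio of ZEB2 to ZEB1, was not tested. The level of ZEB2 over that of ZEB1 was 0.592, 0.525 and 0.535 at 0 mM, 0.382, 0.364 and 0.359 at 20 mM, with 0.328, 0.314 and 0.339 at 40 mM. ZEB1 was the more abundant per length in every library, and the ratios of the 3 doses did not overlap. The log2 ratio averaged -1.61 ± 0.06 at 40 mM and -0.86 ± 0.09 at 0 mM (SD, n = 3 each), a difference of -0.75 (two-sided exact permutation test, p = 0.1, again the smallest possible).

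SNAI2 (ENSG00000019549, chromosome 8, 48917598 to 48921440), a zinc-finger repressor that migrating melanoblasts need, was also under the level required for the test, with a mean of 0.883 FPKM. It had 0.679, 0.857 and 1.17 FPKM at 0 mM, 0.713, 0.891 and 0.835 at 20 mM, with 0.887, 0.94 and 0.974 at 40 mM, and the 0 mM libraries spanned all the others. In the fit without the filter its log2 fold change was 0.00 ± 0.19 at 40 against 0 mM (SE, 95% interval -0.42 to 0.43, adjusted p = 1), -0.15 ± 0.19 at 20 against 0 mM (adjusted p = 0.74) and 0.15 ± 0.19 at 40 against 20 mM (adjusted p = 0.73).

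By mean FPKM at 0 mM the order was SOX10 at 104, ERBB3 at 37.3, TFAP2B at 7.96, FOXD3 at 4.55, ZEB1 at 3.89, MITF at 3.06, ZEB2 at 2.14, PAX3 at 1.86, SNAI2 at 0.901 and TFAP2A at 0.713. Of these neighbours, FOXD3 and ZEB1 overlapped over their 3 libraries, as did SNAI2 and TFAP2A, and the other neighbours did not. TFAP2B, above FOXD3 and ZEB1 in this order at 0 mM, averaged 1.27 ± 0.411 FPKM at 40 mM, below MITF at 3.10 ± 0.277 and PAX3 at 2.38 ± 0.304 (SD, n = 3 each). The libraries of compared doses did not overlap for 5 of the 8 tested genes at 40 against 0 mM, for 4 at 20 against 0 mM and for 5 between 40 and 20 mM. Over all tested genes this held for 61.1%, 50.5% and 43.9%.

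The genes whose profile over the 9 libraries lay closest to TFAP2B, by the root-mean-square difference of log2(FPKM + 1) after centring, were AC025470 (0.209), MT-TT (0.252) and SLC1A1 (0.266). This scale understates the change of low genes such as TFAP2B. In edgeR at 40 against 0 mM their log2 fold changes were -2.3, -1.86 and -2.19 in this order, against -2.68 for TFAP2B. MT-TT had 138 ± 30.7 FPKM at 0 mM and 38.9 ± 2.21 at 40 mM (SD, n = 3 each). SLC1A1, a transporter of glutamate and cysteine, had 7.97 ± 0.206 FPKM at 0 mM, 3.52 ± 0.0636 at 20 mM and 1.78 ± 0.156 at 40 mM (SD, n = 3 each). Closest to FOXD3 were PXYLP1 (0.0506), ABCA2 (0.0534) and WFS1 (0.0561). ABCA2, a lipid transporter, had 2.79 ± 0.412 FPKM at 0 mM, 1.98 ± 0.156 at 20 mM and 1.62 ± 0.207 at 40 mM, and WFS1, a protein of the endoplasmic reticulum, 3.55 ± 0.441, 2.66 ± 0.0539 and 2.16 ± 0.201 at the same doses.

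Around the 10 genes, 6 lists of related genes were read from the same fit at 40 against 0 mM, where 56.2% of all tested genes were called. The lists are not separate sets, since LEF1, SNAI1 and TWIST1 are shared between lists and counted in each. Of 28 other neural crest factors, 19 were tested, of which 4 rose and 6 fell, with a median log2 fold change of 0.01. SOX5, a SOX factor that modulates SOX10 in mouse melanocytes, had 16.6 ± 1.57 FPKM at 0 mM, 9.93 ± 0.522 at 20 mM and 5.41 ± 1.02 at 40 mM (SD, n = 3 each) and fell by 1.65 ± 0.12 on the log2 scale at 40 against 0 mM (SE, adjusted p = 1.3e-06). SOX11, a SOX factor of progenitor cells, fell by 1.40 ± 0.12 (adjusted p = 3.2e-06). The ETS factor ETS1 rose by 0.71 ± 0.08 (adjusted p = 3.1e-05) and the nuclear receptor NR2F2 by 0.60 ± 0.07 (adjusted p = 2.6e-05). ID2 rose by 0.80 ± 0.20 at 40 against 0 mM (adjusted p = 0.0051) and fell by 0.80 at 20 against 0 mM (adjusted p = 0.012), and ID3, a relative that blocks helix-loop-helix factors in the same way, fell by 0.76 at 20 against 0 mM (adjusted p = 0.00010) and had -0.01 ± 0.08 at 40 against 0 mM (adjusted p = 0.91). ID1, of the same family, fell in both comparisons, by 0.37 ± 0.06 at 40 against 0 mM (adjusted p = 0.00033) and by 0.50 ± 0.06 at 20 against 0 mM (adjusted p = 0.00015). These 3 stand outside the naming rule and were chosen after their values were seen.

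Of 12 relatives and partners of MITF, 9 were tested, and at 40 against 0 mM 2 rose and 3 fell. POU3F2, also called BRN2, a factor of invasive melanoma cells, had 6.57 ± 0.109 FPKM at 0 mM, 4.02 ± 0.228 at 20 mM and 3.81 ± 0.0919 at 40 mM (SD, n = 3 each) and fell by 0.82 ± 0.06 (SE, adjusted p = 1.2e-06). TFE3, the MITF paralog that drives lysosome genes, rose by 0.37 ± 0.06 (adjusted p = 0.00033) and USF2 by 0.24 ± 0.06 (adjusted p = 0.0083), and CTNNB1, beta-catenin, fell by 0.14 ± 0.04 (adjusted p = 0.019). Of 28 melanocyte differentiation genes, among them targets of MITF and SOX10, 11 were tested, of which 4 rose and 3 fell (3 rose and 2 fell without replicate 3 of 40 mM). GPNMB, a glycoprotein of melanosomes and lysosomes, rose the most of the 7 called, with 33.2 ± 1.105 FPKM at 0 mM, 49.0 ± 1.85 at 20 mM and 76.0 ± 2.41 at 40 mM (SD, n = 3 each), a log2 fold change of 1.16 ± 0.05 at 40 against 0 mM (SE, adjusted p = 2.9e-08). RAB38, which serves transport to melanosomes, rose by 0.39 ± 0.06 (adjusted p = 0.00043), S100B, a calcium-binding protein used as a melanoma marker, fell by 0.80 ± 0.15 (adjusted p = 0.00080), and the kinase CDK2 fell by 0.15 ± 0.04 (adjusted p = 0.0085).

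Of 19 partners and readouts of SNAI2, ZEB1 and ZEB2 in the switch between epithelial and mesenchymal states, 7 were tested, and at 40 against 0 mM 2 rose and 3 fell. VIM, the mesenchymal filament vimentin, had 471 ± 15.2 FPKM at 0 mM, 347 ± 2.47 at 20 mM and 264 ± 12.8 at 40 mM (SD, n = 3 each) and fell by 0.87 ± 0.04 (SE, adjusted p = 8.2e-08). The matrix protein gene FN1 fell by 0.49 ± 0.08 (adjusted p = 0.00033), and TJP1, of tight junctions, rose by 0.48 ± 0.04 (adjusted p = 2.8e-06), as did CTNNA1, of adherens junctions, by 0.18 ± 0.04 (adjusted p = 0.0015). Of 22 ERBB receptors, ligands and adaptors, 13 were tested, of which 4 rose and 0 fell (5 rose and 1 fell without replicate 3 of 40 mM). The 4 were ERRFI1, an inhibitor of ERBB kinases (0.65 ± 0.04, adjusted p = 5.9e-07), RNF41, a ubiquitin ligase that degrades ERBB3 (0.55 ± 0.06, adjusted p = 1.8e-05), NEDD4, another ubiquitin ligase (0.30 ± 0.05, adjusted p = 0.00029), and the ligand HBEGF (0.46 ± 0.10, adjusted p = 0.0028). RNF41 had 10.8 ± 0.19 FPKM at 0 mM, 17.3 ± 1.27 at 20 mM and 16.1 ± 0.801 at 40 mM (SD, n = 3 each). ERBB2, the main partner of ERBB3, had a log2 fold change of -0.15 ± 0.07 (adjusted p = 0.082) and EGFR of 0.14 ± 0.12 (adjusted p = 0.34). The neuregulin gene NRG2 had 0.37 ± 0.17 (adjusted p = 0.087). NRG1, NRG3 and NRG4 were under 1 FPKM and were not tested. In this order they averaged 0.254, 0.0034 and 0.130 FPKM at 0 mM, and 0.520, 0.0075 and 0.114 FPKM at 40 mM.

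Of 17 genes of stem-like and undifferentiated melanoma states, 13 were tested, and at 40 against 0 mM 7 rose and 3 fell. CCN1, a matrix protein under YAP control, had 11.9 ± 0.716 FPKM at 0 mM, 18.0 ± 0.64 at 20 mM and 40.6 ± 3.04 at 40 mM (SD, n = 3 each), a rise of 1.74 ± 0.07 on the log2 scale (SE, adjusted p = 2.4e-08). TGFBI rose by 0.98 ± 0.04 (adjusted p = 7.7e-08) and JUN, a subunit of AP-1, by 1.60 ± 0.17 (adjusted p = 1.8e-05). NT5E, the ectoenzyme CD73, fell by 0.92 ± 0.05 (adjusted p = 1.7e-07). NGFR, the crest stem cell marker, had -0.04 ± 0.11 (adjusted p = 0.80) and AXL 0.14 ± 0.07 (adjusted p = 0.13). At 20 against 0 mM, with 31.6% of all genes called, the 6 lists had 7 of 19, 4 of 9, 4 of 11, 2 of 7, 4 of 13 and 6 of 13 called. Without replicate 3 of 40 mM in the shared fit, the first became 9 of 19, the epithelial list 3 of 7 and the ERBB list 5 of 13, and the other counts were as before. At 40 against 20 mM, with 29.3%, it was 9 of 19, 0 of 9, 2 of 11, 3 of 7, 2 of 13 and 8 of 13. The 0 of 9 among the relatives of MITF became 1 without replicate 3 of 40 mM, the 2 of 11 among differentiation genes became 3, the 3 of 7 of the epithelial list became 5, and the 2 of 13 of the ERBB list became 5.

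**Figure D4:**
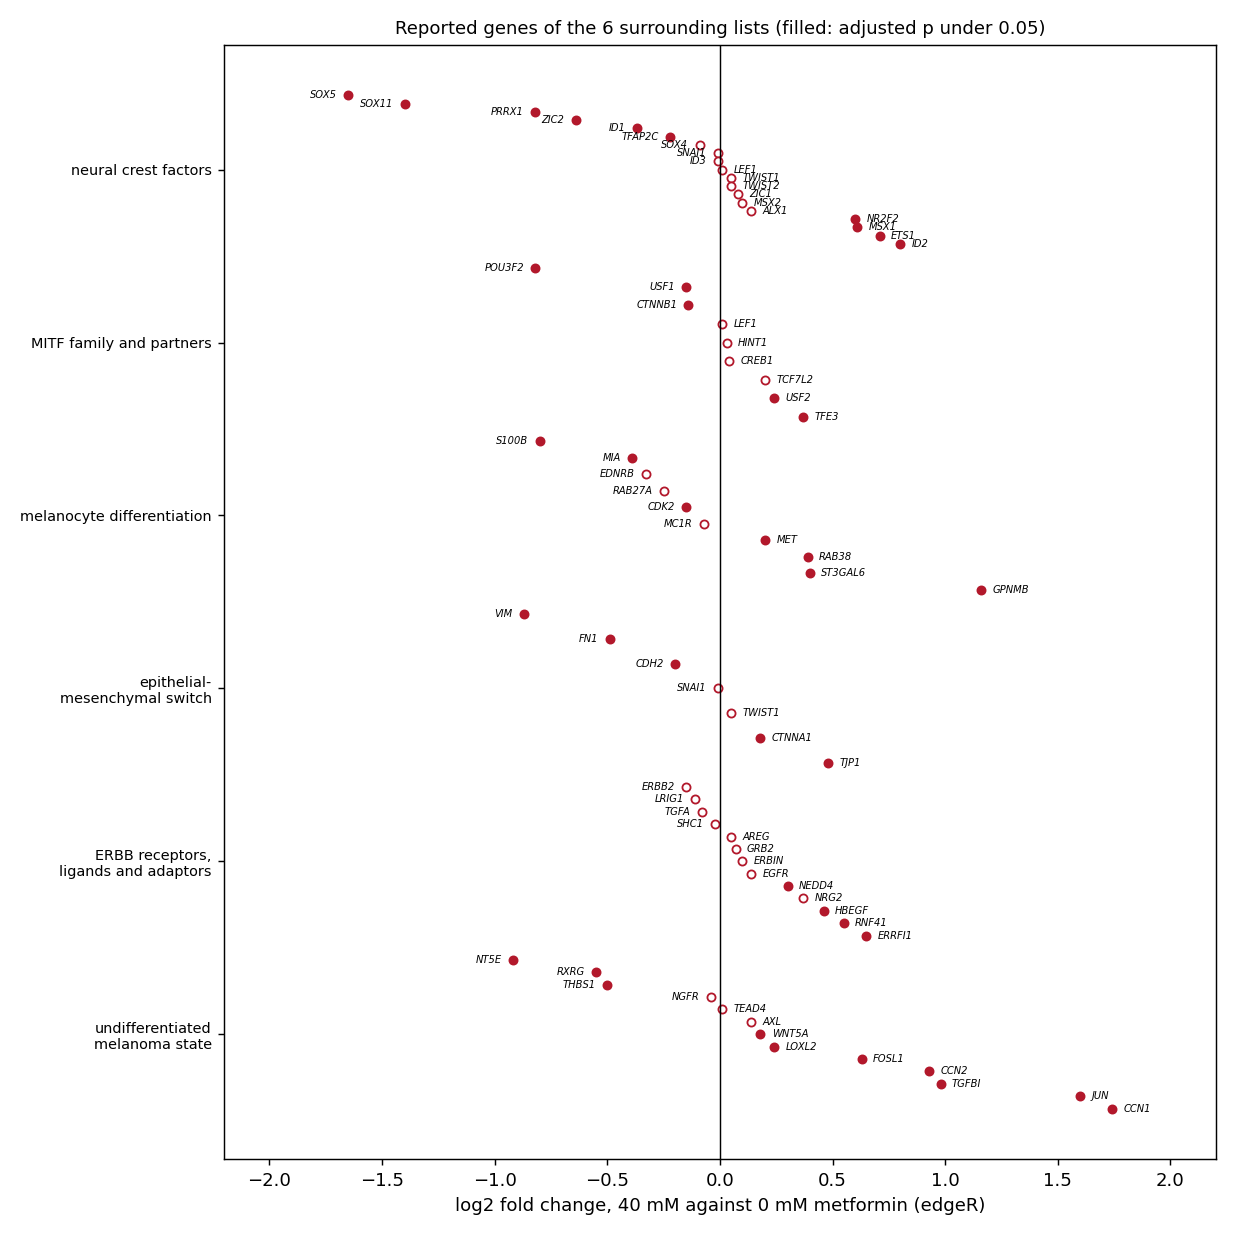
Log2 fold changes at 40 against 0 mM from edgeR for the tested genes of the 6 lists that are reported here, filled where the adjusted p is under 0.05. Each list has a point for each of its genes, so LEF1, SNAI1 and TWIST1, which lists share, appear more than once. CCN1 and JUN lie farthest to the right, at 1.74 and 1.60, and SOX5 and SOX11 farthest to the left, at -1.65 and -1.40.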

How the data were processed

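RNA-seq of 9 A375 libraries at 3 metformin doses was used. Per the file headers, the deposited table holds, for each gene and library, a read count and an FPKM value. Per the submitters' processing notes StringTie 2.1.6 was used, for a step they leave unnamed. Aligner, annotation, genome build and counting strand were not given in the sources used here. Start and end of 4 of the 10 genes are those in GENCODE or RefSeq GRCh38.p14. The table held 0 columns of other samples.

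Counts of genes with a mean of at least 1 FPKM were tested with edgeR 4.0.16 (glmQLFit and glmQLFTest, R 4.3.3, TMM scaling, all 9 libraries in 1 fit, Benjamini-Hochberg adjustment over 12394 genes, threshold 0.05). The intervals of log2 fold changes are at 95%, from the SE and edgeR's degrees of freedom. The libraries held 65738242 to 75629413 counts, and SNAI2 and TFAP2A had 190 to 541 counts each. Counting error and differences between libraries were not separated. The script was tested on simulated counts with changes of 1.5-fold and 2-fold. In each comparison 100 of the 12394 genes were changed at each fold. Over the 3 comparisons it recovered 72% to 75% of the former and 93% to 94% of the latter in the right direction. In the real data 3637 to 6962 genes were called, so these shares are not the recovery in these data. False calls of the simulation are not given here. Smaller changes were not simulated. Alternatives were no filter, a minimum of 5 FPKM, median-of-ratios scaling, library totals, DESeq2 1.42.0, limma 3.58.1 on log2(FPKM + 1) or log2(FPKM + 0.1) of the deposited values and after quantile normalization, only the 6 libraries compared, a replicate block, a threshold of 0.01, and leaving out each library. Whether replicate numbers pair libraries was checked on the correlation of deviations from dose means.

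All 10 genes are named, with up to 4 called genes of smallest p from each of 6 lists and the 3 genes most alike to each of the 2 genes with the largest fold change. Further genes of the lists (TFAP2C, ID1, ID2, ID3, ERBB2, EGFR, NRG1, NRG2, NRG3, NRG4, NGFR and AXL) and overlapping genes were added after their values were seen. Chosen after seeing the data were the replicate block and left-out libraries without the filter, and the lists without replicate 3 of 40 mM. A marker list and a gene of the lists are not reported here. The 10 genes and the lists were chosen with earlier results of these data known.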

Additional observations from a re-analysis of the deposited data

How the results depend on the processing

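Of the 8 tested genes, TFAP2B, FOXD3, ZEB2, ERBB3 and PAX3 kept their calls at 40 against 0 mM under every alternative in which they were tested except a threshold of 0.01, where PAX3 (adjusted p = 0.011) lost its call and 4 were left, with log2 fold changes from -2.96 to -1.98, -0.93 to -0.61, -0.85 to -0.45, -0.76 to -0.53 and 0.18 to 0.40, and for TFAP2B, FOXD3 and ZEB2 the value nearest 0 came from limma on log2(FPKM + 1), which understates the change of low genes. A minimum of 5 FPKM leaves SOX10 and ERBB3 alone, and the genes of the 10 called were then 0 for 20 against 0 mM, 1 for 40 against 0 mM and 1 between 40 and 20 mM. Over all genes, 2517, 4245 and 2367 were called in these 3 comparisons at that minimum, and at a threshold of 0.01 2167 at 20 against 0 mM and 1858 at 40 against 20 mM, instead of 3911, 6962 and 3637. With each library left out in turn, 2408 to 4065 genes passed between 40 and 20 mM (2408 without replicate 2 of 20 mM), and 3 to 5 of the 8, with 5 without replicate 3 of 40 mM, where SOX10 and FOXD3 joined. Over all tested genes, same-numbered libraries correlated between -0.1011 and 0.1859 in their deviations from the dose means, so the numbers were not taken as pairs. This check does not speak for the 10 genes alone, of which 5 were lowest in replicate 1 at every dose. With a replicate block 5 of the 8 passed for 20 against 0 mM, 6 for 40 against 0 mM and 4 between 40 and 20 mM. The block added ERBB3 (adjusted p = 0.024) and ZEB1 (0.040) in the first, SOX10 (-0.33, adjusted p = 0.0087) in the next and ZEB1 (0.035) in the last. With only the 6 libraries compared, 5 were called at 20 against 0 mM, adding PAX3 (adjusted p = 0.047) and ERBB3 (0.049). The TFAP2A call made without a filter was 0 of 1 with a replicate block, and 0 to 1 with each library left out. The values of MITF and ZEB1 at 40 against 0 mM, not called in any setting, changed sign: MITF to 0.04 with library totals, 0.02 and 0.03 with limma, and -0.11 to 0.06 with a library left out, and ZEB1 to 0.04, 0.02 and 0.02, and -0.08 to 0.06. The cause was not tested.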

Other observations

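Replicate 3 was the highest library of its dose by FPKM for 8 of the 10 genes at 0 mM, for 4 at 20 mM and for 10 at 40 mM. Among all 12394 tested genes, replicate 3 was the highest of its dose for 38.3% at 0 mM, 34.2% at 20 mM and 38.1% at 40 mM. With TMM-scaled CPM in place of FPKM, the 8 tested genes gave 7, 4 and 8 at the same doses, and all tested genes 36.3%, 34.7% and 40.3%. Replicate 1 was the lowest at every dose for 5 of the 10. The mitochondrial share of counts in replicate 3 was 3.53% at 0 mM, 3.77% at 20 mM and 4.36% at 40 mM, and in replicate 1 it was 2.76%, 3.63% and 3.01%. Its part in these values was not tested.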
